A study of Saccharomyces cerevisiae with 8 samples.

Results

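XUT0104 and XUT0281 are long noncoding RNAs of budding yeast (*Saccharomyces cerevisiae*) of the class called XUTs, for Xrn1-sensitive unstable transcripts, and run antisense to the stress genes HSP30 and GPP2. Every open reading frame (ORF) listed for these 2 transcripts was taken, which gave 20 ORFs, 10 in each, of 13941 ORFs in 1637 XUTs. Ribosome profiling, which sequences the RNA stretches that ribosomes protect from nuclease, had been performed on BY4741 cells in 4 conditions. All cells were of mating type MATa, carried his3Δ1, leu2Δ0, met15Δ0 and ura3Δ0, and came from YPD cultures in mid-log phase. Wild-type (WT) cells and cells with a upf1 allele marked by kanMX4 (upf1) were compared, each without treatment or after 15 min in cycloheximide (CHX), a drug that stops ribosomes during elongation. The labels name 2 biological replicates for each condition, 8 libraries in all, but the deposited table holds 1 merged value per ORF and condition. No value below therefore has a replicate error, no difference between conditions was tested, and the 95% intervals cover counting error only.

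HSP30 encodes a plasma membrane protein that is induced by heat, ethanol and weak acids and restrains the proton pump Pma1. GPP2 encodes a glycerol-phosphate phosphatase, the enzyme of the last step of glycerol synthesis, which is induced when cells meet high osmolarity. XUTs are degraded in the cytoplasm by the exonuclease Xrn1. Nonsense-mediated decay, which depends on the helicase Upf1, removes RNAs on which translation stops early. A short ORF followed by a long untranslated stretch is a known type of substrate of that pathway.

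On the R64 genome, the HSP30 coding sequence (CDS, YCR021C) lies on the minus strand of chromosome 3 at 156109 to 157107. The 10 ORFs of XUT0104 lie on the plus strand from 156318 to 157062, all of them opposite the HSP30 CDS. The shortest is 18 nt, the longest 102 nt and the median 46.5 nt. The GPP2 CDS (YER062C) lies on the minus strand of chromosome 5 at 279930 to 280682. The 10 ORFs of XUT0281 lie on the plus strand from 279912 to 280775 and so extend past both ends of the GPP2 CDS. The shortest is 21 nt, the longest 285 nt and the median 88.5 nt. Below, ORF 1 is the ORF nearest the 5′ end of each transcript and ORF 10 the last. Coordinates are 1-based and end before the stop codon.

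The ORFs that held most of the reads are shown here with the 6 bases before the start codon, read from the RefSeq R64 sequence 5′ to 3′. Capitals mark the start codon and the stop codon. The first pair, from XUT0104, span chr3:156312-156365 and chr3:156434-156496. The other 3, from XUT0281, span chr5:279906-279962, chr5:279970-280008 and chr5:280264-280557.
XUT0104 ORF 1: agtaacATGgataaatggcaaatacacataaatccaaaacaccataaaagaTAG
XUT0104 ORF 3: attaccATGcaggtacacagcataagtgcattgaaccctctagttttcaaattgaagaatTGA
XUT0281 ORF 1: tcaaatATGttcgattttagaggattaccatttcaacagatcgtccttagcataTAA
XUT0281 ORF 2: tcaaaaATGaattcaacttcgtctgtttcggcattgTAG
XUT0281 ORF 6: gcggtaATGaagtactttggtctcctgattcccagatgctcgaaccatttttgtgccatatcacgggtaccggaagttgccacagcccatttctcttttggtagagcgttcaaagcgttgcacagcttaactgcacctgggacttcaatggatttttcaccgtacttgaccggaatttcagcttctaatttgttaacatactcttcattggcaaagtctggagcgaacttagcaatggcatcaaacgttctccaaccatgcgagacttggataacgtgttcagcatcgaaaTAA

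All 20 ORFs start with ATG, and the stop codon after them is TAA in 7, TAG in 7 and TGA in 6. Of the 7 ORFs with at least 10 reads over the 4 conditions, 5 had an A as the third base before the start codon, the base most favoured there in yeast mRNAs. Among the 5 printed above, XUT0281 ORF 6 was the only exception. Of the 13 ORFs with fewer reads, 3 had an A there. Over all listed ORFs with R64 sequence, the share was 33.2% of 1927 at that depth and 28.4% of 11985 below it. Of the 19 ORFs that lie opposite a CDS, 5 shared its codon boundaries.

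GPP2 has a close paralog, GPP1, so reads could in principle be shared between their antisense strands. Each ORF was cut into 28-nt windows with 14 nt of flank on either side, and none of the 490 windows of XUT0104 or the 1075 of XUT0281 occurred elsewhere in the genome. Of the windows of XUT0281, 94 came within 2 mismatches of GPP1 and its surroundings. They lay in ORFs 3, 6, 7, 8 and 9. In ORF 6 these were 9 of 286 windows, and in ORFs 1 and 2 there were none. No listed XUT ORF lay antisense to GPP1.

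In XUT0104 the reads gathered on a short ORF among the first of those listed. Its distance from the 5′ end of the transcript was not measured. ORF 3, of 54 nt (156440 to 156493), held 34 reads in upf1 + CHX, 30 in WT + CHX, 16 in upf1 and 3 in WT. It overlapped no other listed ORF, and it was the most-read ORF of XUT0104 in every condition. Over the 4 conditions it held 83 of the 119 reads in the non-overlapping ORFs of XUT0104, or 69.7% (95% exact interval 60.7 to 77.8), which is 154 reads per 100 nt. ORF 1, of 45 nt (156318 to 156362), held 7 reads in upf1 + CHX, 11 in WT + CHX, 3 in upf1 and 0 in WT, or 46.7 reads per 100 nt in all. Its start codon lies 122 nt before that of ORF 3.

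ORF 2 of XUT0104, of 30 nt (156326 to 156355), is nested in ORF 1 in another frame. It held 7, 6, 2 and 0 reads in the order upf1 + CHX, WT + CHX, upf1 and WT. The reads of ORF 1 in upf1 + CHX may thus all be those of ORF 2. The remaining 7 ORFs held at most 6 reads each over the 4 conditions, and the 18-nt ORF 9 held none. ORFs 4 and 5, which overlap, had the same count in each condition (1, 1, 4 and 0 in that order) and may share the same reads. ORFs 4, 5, 6 and 7 each held 4 reads in upf1 and at most 1 in any other condition, and each of them overlaps at least 1 of the others.

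In XUT0281 the reads lay in 2 places, the first pair of listed ORFs, both short, and a long ORF inside the GPP2 CDS. ORF 1, of 48 nt (279912 to 279959), reaches 18 nt past the end of the GPP2 CDS and lies opposite its last 30 nt. It held 38 reads in upf1 + CHX, 31 in WT + CHX, 3 in upf1 and 0 in WT. It was high in both CHX conditions and low in both untreated ones. Over the 4 conditions it had 150 reads per 100 nt.

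ORF 2 of XUT0281, of 30 nt (279976 to 280005), held 20, 10, 4 and 0 reads in the order upf1 + CHX, WT + CHX, upf1 and WT, or 113 reads per 100 nt in all. It was again highest with CHX. Its deposited pooled count of 37 was larger than the 34 reads of its 4 conditions, while for the other 19 ORFs the pooled count equalled the sum. ORF 6, of 285 nt (280270 to 280554), held 16 reads in upf1 + CHX, 15 in WT + CHX, 17 in upf1 and 1 in WT, or 17.2 reads per 100 nt in all. Its counts in the first 3 of these were nearly equal, whereas those of ORFs 1 and 2 were not. These are raw counts, and equal counts are not equal shares. The reads in all non-overlapping XUT ORFs were 33546, 27376, 20012 and 4466 in the same order.

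ORF 7 of XUT0281, of 138 nt (280521 to 280658), overlaps the end of ORF 6 and held 12, 7, 5 and 0 reads in the same order. The remaining 6 ORFs held at most 8 reads each over the 4 conditions. The 21-nt ORF 10, which lies outside the GPP2 CDS beyond its start codon, held none. Of the reads in non-overlapping ORFs, those in ORFs entirely inside the GPP2 CDS were 50% (38.7 to 61.3) in upf1 + CHX, 45.6% (32.4 to 59.3) in WT + CHX and 85.2% (66.3 to 95.8) in upf1. For XUT0104 every listed ORF lies inside the HSP30 CDS, so all counted reads lay opposite it by construction.

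**Figure D1:**
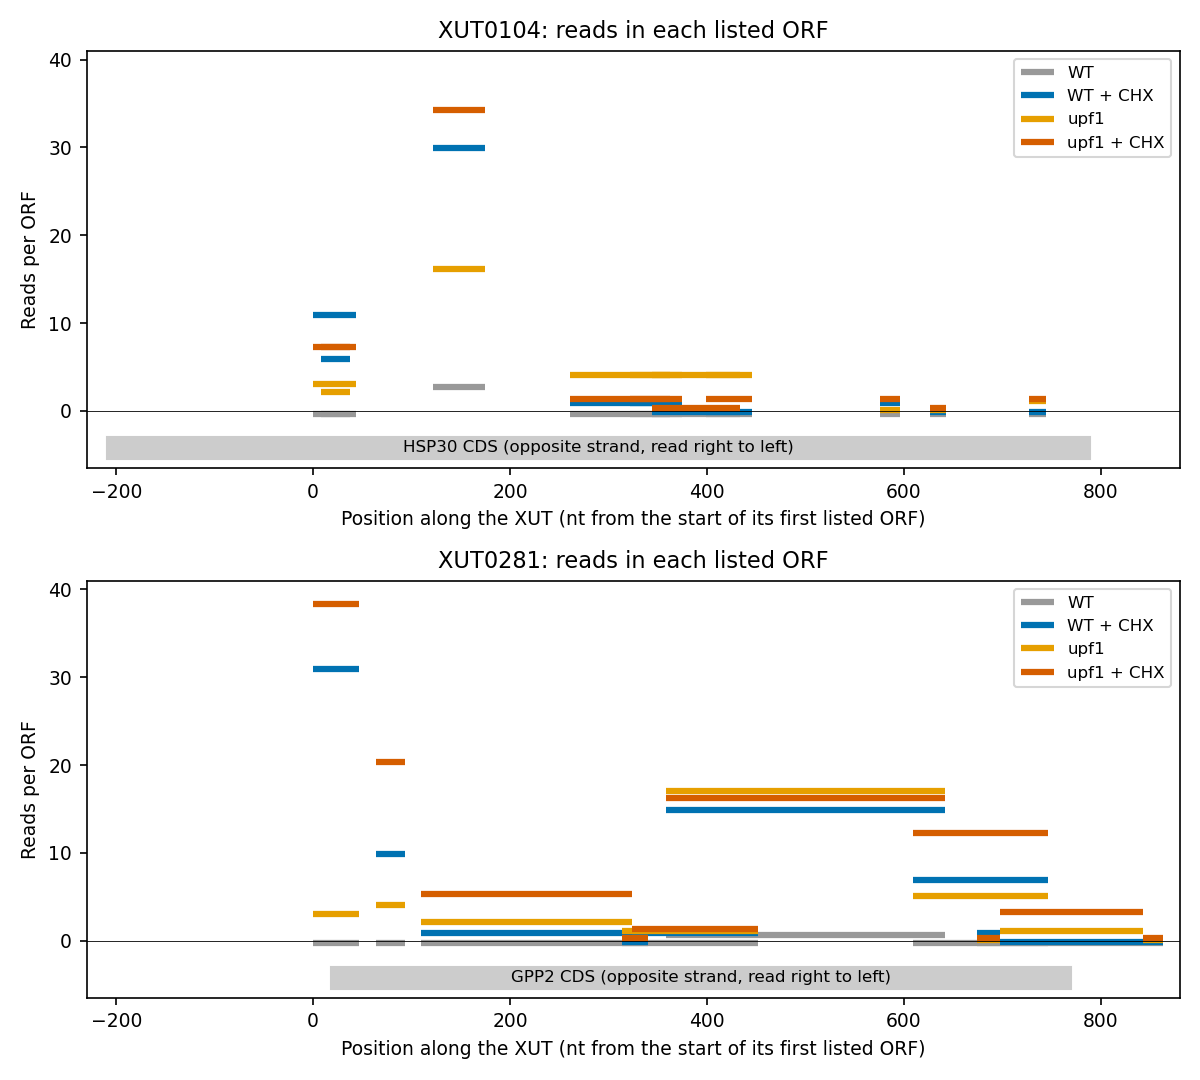
Reads in each listed ORF (vertical axis) against its position along the transcript in nt from the start of ORF 1 (horizontal axis), for XUT0104 (top) and XUT0281 (bottom). Each bar spans 1 ORF in 1 condition, drawn slightly above or below its whole-number count so that equal counts can be told apart, and the grey box is the CDS on the opposite strand. ORF 3 of XUT0104 stands at 30 and 34 reads with CHX, and ORF 6 of XUT0281 at 15 to 17 reads in all conditions but WT.

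Along XUT0281, a larger share of the reads lay in ORF 1 and a smaller share in ORF 6 in CHX-treated than in untreated upf1 cells. ORF 1 held 3 of 27 reads in upf1, or 11.1% (2.35 to 29.2), and 38 of 82 in upf1 + CHX, or 46.3% (35.3 to 57.7). In WT + CHX it held 31 of 57, or 54.4% (40.7 to 67.6). These intervals do not overlap between untreated and treated upf1 cells, while those of both treated conditions do. ORF 6 held 17 of 27 reads in upf1, or 63.0% (42.4 to 80.6), 16 of 82 in upf1 + CHX, or 19.5% (11.6 to 29.7), and 15 of 57 in WT + CHX, or 26.3% (15.5 to 39.7). The single WT read lay in ORF 6, so the untreated WT distribution is not known. These ORFs were picked after their counts had been seen, so the intervals are a description and no test, and they cannot show how far replicate cultures vary.

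Set beside the other XUTs, the change in XUT0281 was near the top. Among 216 XUTs with at least 20 reads in both upf1 and upf1 + CHX and at least 2 non-overlapping ORFs, the share of the first such ORF changed with CHX by a median of 2.64 percentage points (quartiles -0.317 and 11.0). In XUT0281 it was 35.2 points larger with CHX, and 2 XUTs, or 0.926%, had a larger increase. With at least 10 reads in both conditions, 3.17% of 379 XUTs did. This comparison was chosen after the values of XUT0281 had been seen. In XUT0104 the share of ORF 1 was 15.6% (6.49 to 29.5) in upf1 + CHX and 10.7% (2.27 to 28.2) without CHX, and the 4.84-point difference was exceeded by 39.8% of the XUTs. Most reads of XUT0104 lay in its second non-overlapping ORF, however. For the first 2 such ORFs together, which are ORFs 1 and 3, the share was 23.3 points larger with CHX, and 15 of 211 XUTs, or 7.11%, had a larger increase. For XUT0281, where they are ORFs 1 and 2, it was 44.8 points larger, and 1 XUT had a larger increase.

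ORF 3 of XUT0104 kept the largest share in each of the better covered conditions. It held 75.6% (60.5 to 87.1) of the transcript's reads in upf1 + CHX, 69.8% (53.9 to 82.8) in WT + CHX and 57.1% (37.2 to 75.5) in upf1, with intervals that overlap. ORFs 1 and 3 together held 91.1% (78.8 to 97.5), 95.3% (84.2 to 99.4) and 67.9% (47.6 to 84.1) in the same order. The lowest of these shares was that of untreated upf1 cells, as for ORFs 1 and 2 of XUT0281, which together held 25.9% (11.1 to 46.3) there against 71.9% (58.5 to 83.0) in WT + CHX and 70.7% (59.6 to 80.3) in upf1 + CHX. For XUT0104 the intervals of the treated and untreated upf1 cells overlap, and for XUT0281 they do not. Among 376 XUTs with at least 3 non-overlapping ORFs and at least 50 reads, the most-read ORF was the first in 56.1%, as in XUT0281, and the second in 19.7%, as in XUT0104, where ORF 2 was left out for its overlap.

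**Figure D2:**
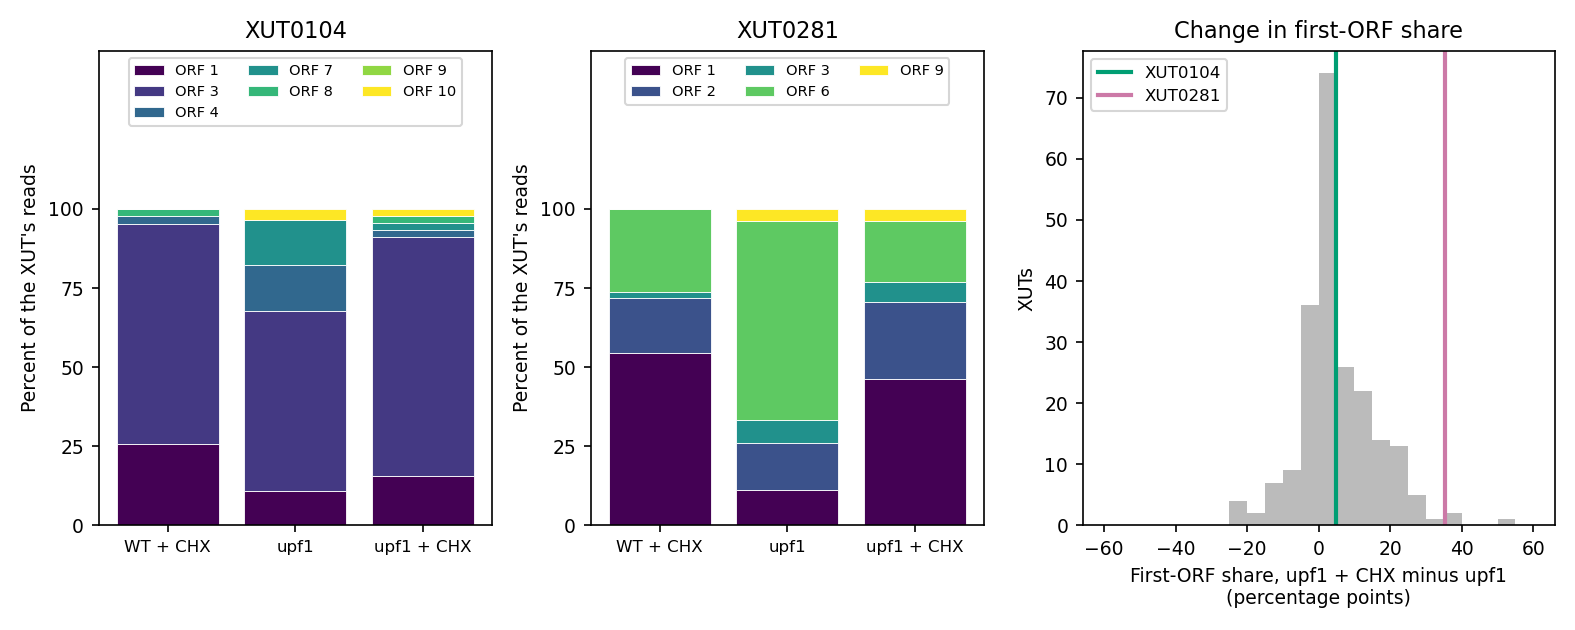
Percent of each transcript's reads (vertical axis) in each of its non-overlapping ORFs for WT + CHX, upf1 and upf1 + CHX, in XUT0104 (left) and XUT0281 (middle), and a histogram (right) of the change in first-ORF share from upf1 to upf1 + CHX, in percentage points, over 216 XUTs. WT is left out for its 3 and 1 reads. The bar of ORF 1 in XUT0281 goes from 11.1% to 46.3% with CHX in upf1, and the line of XUT0281 at 35.2 points stands in the right tail.

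The levels of both transcripts were compared as shares of all reads in non-overlapping XUT ORFs, because the table holds XUT ORFs only and its column sums are not library depths. These sums were 33546 reads in upf1 + CHX, 27376 in WT + CHX, 20012 in upf1 and 4466 in WT. Fewer ribosomes per RNA and less RNA cannot be told apart from footprints alone. XUT0104 held 45, 43, 28 and 3 reads in that order, and XUT0281 held 82, 57, 27 and 1. Over the 4 conditions both were among the better read XUTs, with more reads than 89.7% and 93.2% of them, where the median XUT had 14 reads.

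XUT0104 took 13.4 of every 10000 reads (9.79 to 17.9) in upf1 + CHX, 15.7 (11.4 to 21.2) in WT + CHX, 13.99 in untreated upf1 cells (9.30 to 20.2) and 6.72 in untreated WT cells (1.39 to 19.6). XUT0281 took 24.4 (19.4 to 30.3), 20.8 (15.8 to 27.0), 13.5 (8.89 to 19.6) and 2.24 (0.0567 to 12.5) in the same order. Both were lowest in untreated WT, with an interval that overlaps all others for XUT0104 and overlaps that of upf1 alone for XUT0281. The 2 transcripts had nearly the same share in upf1. In upf1 + CHX that of XUT0281 was the larger, with intervals that do not overlap. These shares are not divided by ORF length, and the listed ORFs of XUT0281 are longer (median 88.5 nt against 46.5 nt). They therefore do not rank the 2 transcripts by reads per nt.

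**Figure D3:**
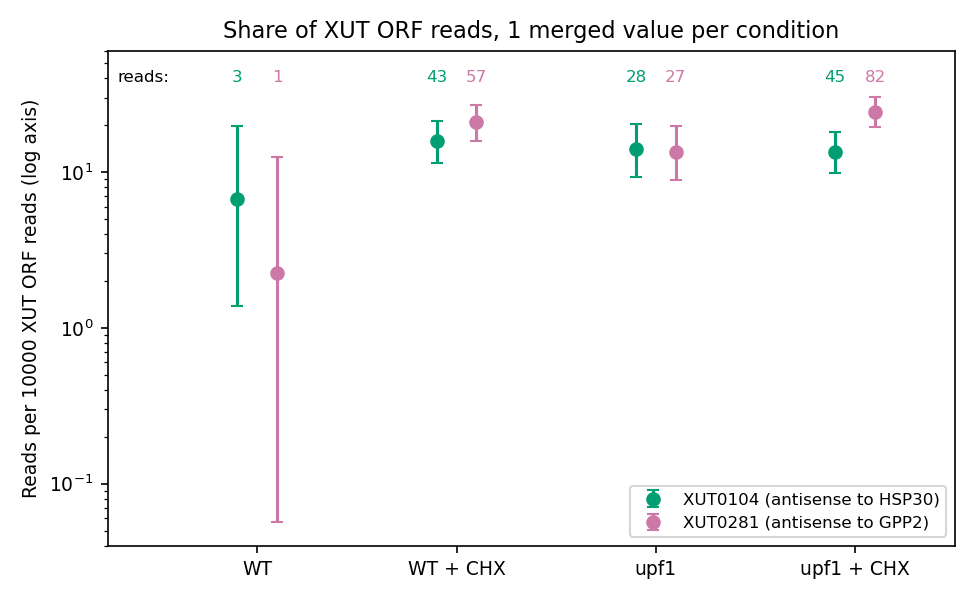
Reads per 10000 XUT ORF reads (vertical axis, log scale) in the 4 conditions for XUT0104 and XUT0281. Points are the merged values, bars are 95% exact binomial intervals for counting error, and the numbers on top are the reads. Both points are lowest in WT, where they rest on 3 and 1 reads.

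In untreated cells, both shares were more than 2-fold larger in upf1 than in WT. Of 470 XUTs with at least 10 reads in these conditions together, 42.1% passed that fold in the same direction, so doing so does not set them apart, and 10% had an at most 0.5-fold share. An XUT with 0 reads in WT passes any fold, and 31 of the 198 that passed had none there. With such zeros set to 3 reads and all other counts unchanged, 36.2% passed. The 1 read of XUT0281 in WT was thus kept, below the value given to the zeros. The ratio was 2.08 for XUT0104 (95% counting interval 0.643 to 10.7) and 6.03 for XUT0281 (0.993 to 247), both of which include no difference. At its share in upf1, XUT0281 would have had 6.03 reads in WT, where 1 was found, and XUT0104 would have had 6.25, where 3 were found. The ratio of XUT0281 was exceeded by 42 XUTs, or 8.94%, 31 of which had 0 reads in WT, and that of XUT0104 by 38.1%. Without the 2-micron plasmid in the totals the ratio of XUT0104 was 1.74, and for its ORF 3 alone it was 1.19, both under 2-fold.

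With CHX, neither share differed between upf1 and WT by 2-fold. The ratio was 0.854 (0.550 to 1.33) for XUT0104 and 1.17 (0.827 to 1.68) for XUT0281, against a median of 0.959 over 842 XUTs. Here 6.53% of the XUTs had an at least 2-fold larger share and 8.79% an at most 0.5-fold share. The counts of 43 to 82 reads make these the most precise of the 4 comparisons, and the intervals leave out a 2-fold difference in either direction.

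CHX was compared with no treatment in each strain. In WT the ratio was 2.34 (0.748 to 11.8) for XUT0104 and 9.30 (1.60 to 374) for XUT0281. Both passed 2-fold, as did 40.1% of 651 XUTs, while 8.45% had an at most 0.5-fold share. Of the 261 that passed, 104 had 0 reads in WT. With zeros set to 3 reads and all other counts unchanged, 25.3% passed. Both divide by the same WT reads as the ratios of upf1 to WT. The ratio of XUT0104 was 1.87 without the plasmid and 1.63 for ORF 3 alone. In upf1 the ratio was 0.959 (0.585 to 1.60) for XUT0104 and 1.81 (1.16 to 2.91) for XUT0281, neither past 2-fold, while 27.2% of 777 XUTs had an at least 2-fold larger share and 10.8% an at most 0.5-fold one. For ORF 1 of XUT0281 alone, its most-read ORF over the 4 conditions together, the ratio in upf1 was 7.56, on 3 reads without CHX. In untreated upf1 cells ORF 6 was the most-read ORF of XUT0281. It held 17 of 20012 reads there and 16 of 33546 in upf1 + CHX, a smaller share. For ORF 3 of XUT0104 alone the ratio in upf1 was 1.27.

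**Figure D4:**
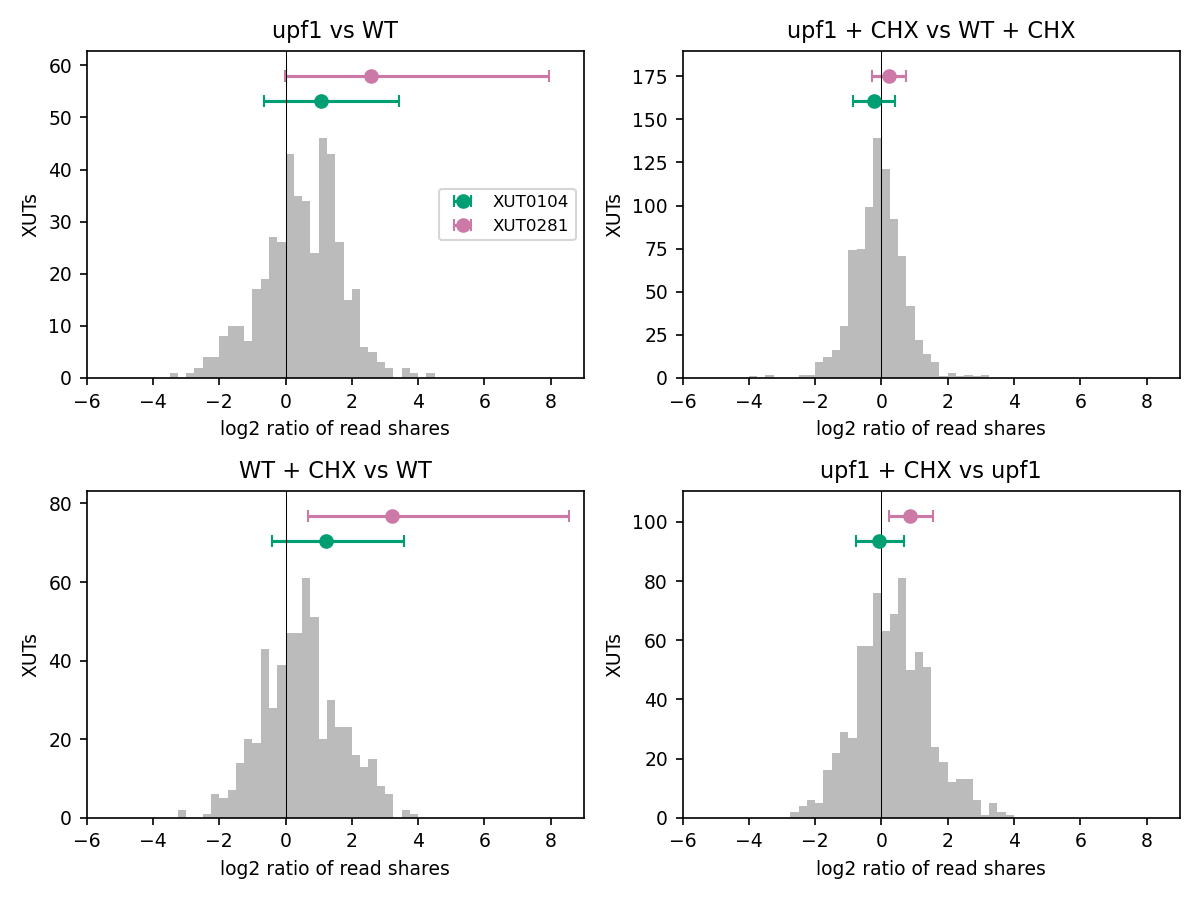
Histograms of the log2 ratio of read shares over all XUTs with at least 10 reads in the conditions compared together and at least 1 in each (grey), in the 4 comparisons, with the values of XUT0104 and XUT0281 above them. Bars are 95% counting intervals. The intervals are widest in both comparisons with WT, and XUT0281 lies right of XUT0104 in all 4.

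The phase score, which runs from 0 to 1 and is high when the reads of an ORF keep to 1 position within the codon, was deposited for each ORF and condition. With few reads it is high for want of reads: of the ORFs with 1 read, 88.4% to 91.3% scored 1, depending on the condition. An ORF was called phased at a score of at least 0.32 with at least 10 reads. In WT none of the 20 ORFs had 10 reads. In WT + CHX all 5 ORFs with 10 reads were called, where 64.2% of 805 ORFs were. In upf1 1 of 2 was called, against 62.9% of 504, and in upf1 + CHX 4 of 5, against 72.6% of 949. With so few ORFs these counts do not stand out from the rest.

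ORF 3 of XUT0104 had steady scores. It scored 0.504 on 34 reads in upf1 + CHX, 0.401 on 30 in WT + CHX, 0.545 on 16 in upf1 and 0.577 on 3 in WT. Other ORFs with counts within 1.5-fold of its own had medians of 0.411, 0.356, 0.401 and 0.577 in the same order. It lay above the median in each condition but WT. There, on 3 reads, it equalled the median and 38.4% of those ORFs scored lower. With at least 10 reads, 61.5% to 73.7% of those ORFs scored lower. ORF 1 of XUT0104 scored 0.496 on 11 reads in WT + CHX, its only condition with 10 reads. In upf1 + CHX it scored 0.25 on 7 reads, where 8.91% of ORFs with similar counts scored lower. ORF 2, nested in it in another frame, scored 0.5 on 6 reads in WT + CHX. Because they may share reads, the call cannot be given to ORF 1 alone.

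ORF 1 of XUT0281 scored 0.598 on 31 reads in WT + CHX and 0.499 on 38 in upf1 + CHX. Of the other ORFs with similar counts, 86.4% and 73.3% scored lower. ORF 2 scored 0.333 on 10 reads in WT + CHX and 0.768 on 20 in upf1 + CHX, where 94.7% of ORFs with similar counts scored lower. The difference of 0.434 was exceeded by 17 of the 686 ORFs that reached 10 reads in each of the CHX conditions, whose median difference was 0.046. In upf1 it scored 0 on 4 reads. The other ORFs were matched by count and not by length, and ORF 2 has only 10 codons.

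ORF 6 of XUT0281 had nearly the same count in 3 conditions but unlike scores. It scored 0.699 on 16 reads in upf1 + CHX, 0.382 on 15 in WT + CHX and 0.179 on 17 in upf1. Of other ORFs with similar counts, 87.3%, 43.4% and 9.69% scored lower. The difference of 0.520 between upf1 + CHX and upf1 was exceeded by 6 of 451 ORFs and is known to be among the largest of the table, so it is a description and no test. The difference of 0.317 between upf1 + CHX and WT + CHX was exceeded by 59 of 686. ORF 7, which overlaps ORF 6, scored 0.266 on 12 reads in upf1 + CHX and was the only ORF with 10 reads there that was not called.

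**Figure D5:**
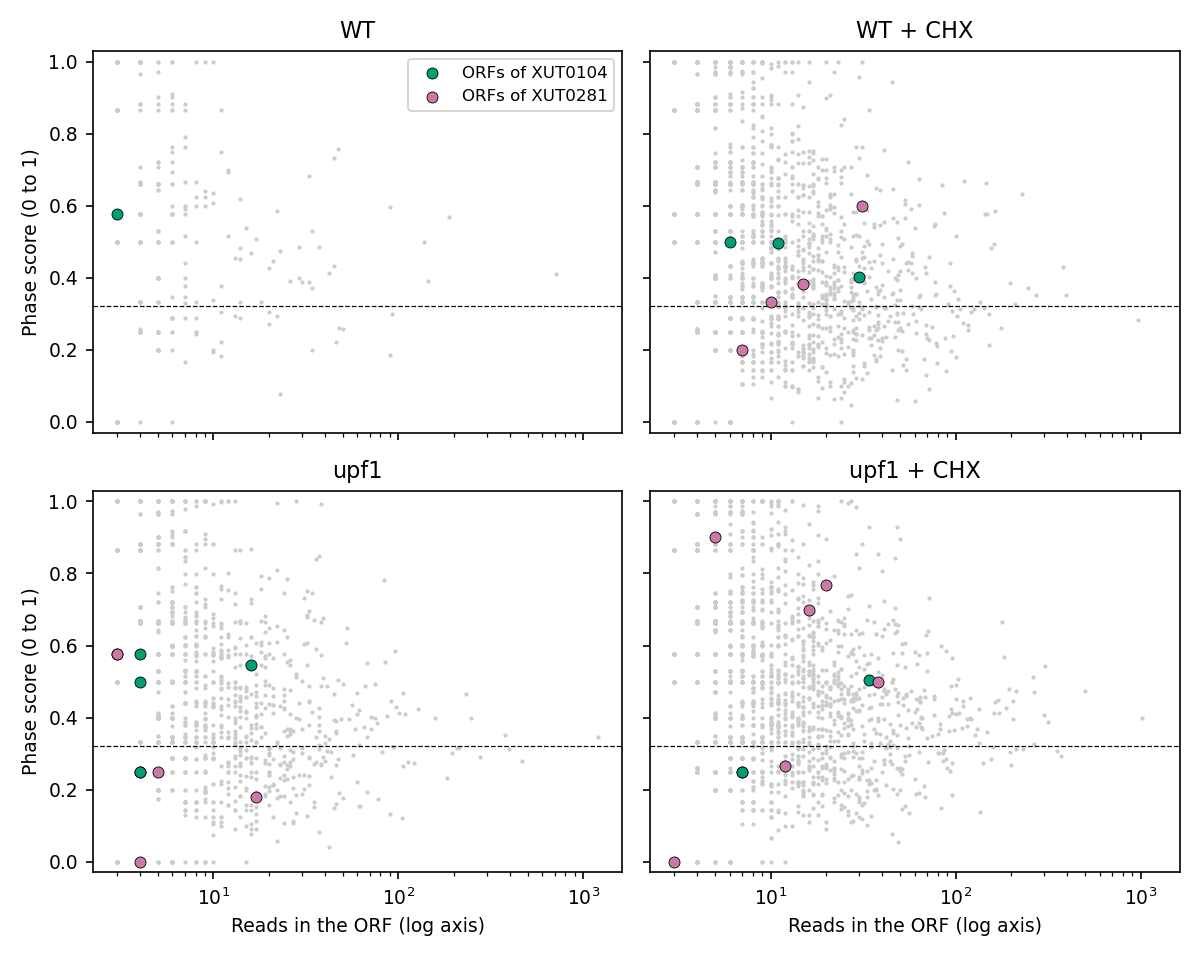
Phase score (vertical axis) against reads in the ORF (horizontal axis, log scale) in the 4 conditions, for every ORF with at least 3 reads (grey) and for the ORFs of XUT0104 and XUT0281 (coloured). The dashed line is the score of 0.32. ORF 6 of XUT0281 is below the line at 17 reads in upf1 and at 0.699 on 16 reads in upf1 + CHX.

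By their profile of read share over the 4 conditions, 411 XUTs with at least 50 reads were ranked by likeness, the Euclidean distance between centred log2 shares. The nearest to XUT0104 was XUT1128, antisense to YEA4 (distance 0.113). It had 20, 18, 11 and 1 reads in upf1 + CHX, WT + CHX, upf1 and WT. Next came XUT1262 (0.199), with no listed ORF opposite a CDS, and XUT0982, antisense to ARA1 (0.222). The nearest to XUT0281 was XUT1253 (0.135, on 245, 179, 75 and 4 reads), antisense to CLD1, a gene for a cardiolipin deacylase. XUT1591, antisense to YMR247W-A (0.173), and XUT1181 (0.234), with no listed ORF opposite a CDS, followed. XUT0104 and XUT0281 were 1.55 apart, with 286 XUTs nearer to XUT0104 than XUT0281 was and 119 nearer to XUT0281 than XUT0104 was. Each profile rests on 4 values, of which that in WT comes from at most 5 reads in all of these transcripts.

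Other XUTs antisense to genes of the same 2 stress programmes were looked up from lists of 33 heat shock and membrane-stress genes and 36 genes of glycerol synthesis and osmotic stress. XUT ORFs lay antisense to 6 genes of each list, in 9 and 10 XUTs, of which 4 and 5 had at least 10 reads over the 4 conditions. In the heat shock list, XUT0863, antisense to the Hsp90 chaperone gene HSP82, had 63 reads in upf1 + CHX, 51 in WT + CHX, 34 in upf1 and 1 in WT. XUT1769, antisense to PMA2, which encodes an isoform of the proton pump, had 39, 18, 20 and 3. XUT0250, antisense to HSP31, a gene for a stress protein that detoxifies methylglyoxal, had 25, 34, 6 and 1. XUT0971, antisense to YRO2, a gene related to HSP30, had 15, 16, 4 and 0.

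In the osmotic stress list, XUT0115, antisense to SSK22, a kinase gene of the high-osmolarity pathway, had 45 reads in upf1 + CHX, 26 in WT + CHX, 48 in upf1 and 4 in WT. XUT0755, antisense to SKO1, a transcription factor gene of that pathway, had 17, 26, 5 and 7. Its share in upf1 was 0.159-fold that in WT (0.0399 to 0.583). The same ratio was 7.59 for XUT0863 (1.27 to 308), 2.68 for XUT0115 (0.981 to 10.2) and 1.49 for XUT1769 (0.441 to 7.82). These are the other list XUTs with at least 10 reads in upf1 and WT together. XUT1672, antisense to the transcription factor gene MSN1, had 22, 21, 6 and 0. XUT0283, antisense to PTP3, a phosphatase gene that acts on the kinase Hog1, had 10, 5, 1 and 0. XUT0169, antisense to the sodium pump gene ENA1, had 6, 2, 6 and 1. All 9 XUTs had at most 7 reads in WT, as did XUT0104 and XUT0281. So did most XUTs, since only 784 of 1637 had any read in WT and XUT0104 ranked 243 there with 3 reads. This low count does not set them apart.

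With CHX, the share in upf1 was within 2-fold of that in WT for all 8 list XUTs with at least 10 reads in both together, as for XUT0104 and XUT0281. Their median ratio was 0.887 over 4 heat shock XUTs and 1.13 over 4 osmotic stress XUTs, against 0.959 over all. Of all 842 XUTs, 6.53% had an at least 2-fold larger share and 8.79% an at most 0.5-fold one, so most were within 2-fold. In upf1, CHX against none gave an at least 2-fold larger share for 2 of 4 heat shock XUTs, with a median of 1.70, and for 3 of 5 osmotic stress XUTs, with a median of 2.03, against 27.2% and a median of 1.25 over all XUTs. None of the list XUTs had an at most 0.5-fold share in those comparisons, against 8.79% and 10.8% of all XUTs. In WT, CHX against none passed 2-fold in 3 of 4 and 1 of 3, against 40.1% over all XUTs. Of these, XUT0971 and XUT1672 passed only because they had 0 reads in WT. With zeros set to 3 reads, 2 of 4 and 0 of 3 passed. The 2 that still passed, XUT0863 and XUT0250, had 1 read each in WT, and that count was left unchanged. Untreated upf1 against WT passed 2-fold in 1 of 2 and 1 of 2, against 42.1%, with the XUT at SKO1 in the other direction. These counts are too small to set beside the shares over all XUTs as more than a description.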

How the data were processed

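HISAT2 2.2.0, UMI-tools and cutadapt, with R64 as genome build, are named in the submitters' processing notes. How the ORFs were listed and scored and how replicates were merged is not given in the sources used here. For each ORF the authors deposited a whole-number read count and a phase score, a fraction from 0 to 1, per condition and pooled. The members, gene lists and comparisons were chosen with earlier results of these data known. Because the table holds 1 value per condition, the replicate test foreseen for replicate columns was not run.

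ORFs that overlap on 1 strand (60.8%) can share reads, so sums per XUT used 9309 ORFs without mutual overlap, picked by decreasing pooled count with ties by start. An ORF counted as antisense to a CDS at an overlap of at least 1 nt. Shares have Clopper-Pearson intervals and share ratios the exact conditional interval, both at 95% and computed with SciPy 1.17.1. The ratio code was tested on simulated data. Reads over all listed ORFs summed to 44035 in upf1 + CHX, 35728 in WT + CHX, 26791 in upf1 and 5897 in WT. ORFs with at least 10 reads over the conditions were described, as were list XUTs at that depth and, by profile, the 3 nearest XUTs with at least 50 reads (0.5 added before the log2). Alternatives were the plasmid left out, all listed ORFs, the most-read ORF alone, median-ratio scaling, other read minimums, zeros set to a floor of 3 reads, other score thresholds, and ORFs entirely inside the CDS.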

Additional observations from a re-analysis of the deposited data

Results flagged for a closer look

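For XUT0104, the share ratios under the same contrast lay on opposite sides of no difference. With CHX its log2 share ratio was 1.23 in WT and -0.061 in upf1. For upf1 against WT it was 1.06 without CHX and -0.23 with CHX. These differences were not tested, since each condition has 1 merged value, and all 4 counting intervals include 0. Both positive ratios divide by the same 3 reads in WT. For ORF 3 alone, the ratio with CHX, before the log2, was 1.63 in WT and 1.27 in upf1, the same direction. For upf1 against WT it was 1.19 without CHX and 0.925 with CHX.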

How the results depend on the processing

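No paired analysis was possible because the table holds 1 merged value per condition and no replicate columns, and for the same reason no replicate could be left out. All 8 share ratios stayed within their counting intervals without the plasmid, over all listed ORFs and under median-ratio scaling. With the ORF most read over the 4 conditions alone, the ratio of XUT0281 for upf1 + CHX against upf1 was 7.56. It rests on 3 reads of ORF 1 in upf1, where ORF 6 held 17. The ratios of XUT0281 against untreated WT have no value because ORF 1 had 0 reads there. With no read minimum, phased calls in XUT0104 numbered 5 in upf1 + CHX, 6 in WT + CHX, 5 in upf1 and 1 in WT, and in XUT0281 5, 6, 5 and 1. At a score of at least 0.5 in WT + CHX they numbered 0 in XUT0104 and 1 in XUT0281. Counting only ORFs entirely inside the GPP2 CDS gave 50% of XUT0281 reads in upf1 + CHX, 45.6% in WT + CHX and 85.2% in upf1, where 100% lay in ORFs that overlap it. At a minimum of 20 reads, 5.78% of XUTs had an at most 0.5-fold share in upf1 against WT, where 10% did at 10 reads. With 0 reads set to 3 and other counts unchanged, 25.3% of XUTs had an at least 2-fold larger share in WT + CHX against WT. Without this alternative, which was chosen after seeing the data, 40.1% did. The larger first-ORF changes than that of XUT0281 came to 3.17% of XUTs at a minimum of 10 reads, an alternative chosen after seeing the data. Depth limits every value in untreated WT, where the transcripts had 3 reads and 1 read.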
